A study of Homo sapiens with 6 samples.

Results

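U87MG, a human glioblastoma cell line, was infected with lentiviruses that express short hairpin RNAs and was profiled on human transcriptome arrays. The 6 arrays carry the names of 3 hairpins and the replicate number 1 or 2. The comparison described here sets the 3 arrays with replicate number 1 against the 3 arrays with replicate number 2, paired within the hairpin, so that each side holds 1 array of shGFP, 1 of sh50 and 1 of sh52. shGFP, by its name directed against GFP, is taken as the control hairpin. sh50 and sh52 are named after the last digits of 2 clones of a hairpin library, and no target is stated for either; SAT1, a polyamine acetyltransferase, is named in the title of the series. All 6 samples were infected and drug selected and then grown, below confluence, for 5 days. What the replicate number stands for, whether an infection, a culture, a day or a hybridisation, is not stated. Where a p-value is given it therefore reflects the spread of these 6 arrays alone, and that spread may be technical. A cultured line has no immune, endothelial or stromal cells, which limits it as a model of a tumour.

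Of 67528 transcript clusters on the array, 33764 had a mean over the 6 arrays at or above the median of all clusters (3.98 on the log2 scale) and entered the comparison. Of these, 15162 carry the symbol of 1 gene, and they represent 14376 genes, each by its brightest cluster. The last clusters inside this limit and the first outside it all averaged 3.98, and their differences ran between -0.08 and 0.24. Values are log2 expression, given in the hairpin order shGFP, sh50, sh52, and every difference is replicate 1 minus replicate 2. Folds hold only if the logarithm has base 2 and the signal was not scaled further, which the sources used here do not settle. With 3 arrays on each side, precision is limited by their number.

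By their mean over the 6 arrays, all 5 markers expected to be present (VIM, CD44, NES, CHI3L1, CAV1) were above the limit, and CDKN2A, CDKN2B and MTAP, known to be deleted in this line, were below it. None of the 5 defining blood and immune markers with a cluster was above the limit, nor any of the 3 endothelial markers, and 1 of 3 epithelial markers was. Summed over each whole marker list on the linear scale, blood and immune markers reached 15.62 to 15.85 (log2) on the replicate 1 arrays and 15.35 to 15.59 on the replicate 2 arrays, nearly all of it from CD68, a lysosomal protein that is not confined to immune cells. Epithelial markers summed to 8.09 to 8.34 and 8.23 to 8.45, and endothelial markers to 7.29 to 7.49 and 7.32 to 7.45, on the replicate 1 and replicate 2 arrays.

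SAT1 was highest on an array that carries a hairpin of the pair sh50 and sh52. SAT1 measured 9.45, 9.36 and 10.83 on the replicate 1 arrays, against 8.96, 8.35 and 7.84 on the replicate 2 arrays. Every replicate 1 array lay above every replicate 2 array, and the array labelled sh52 replicate 1 held the highest SAT1 level of all 6. Against shGFP with the same replicate number, SAT1 differed by 1.39 on the array labelled sh52 replicate 1 and by -1.12 on sh52 replicate 2, and for sh50 by -0.08 with replicate number 1 and by -0.62 with number 2. The mean SAT1 difference between the replicate numbers was 1.496 ± 0.50 (SE, 3 pairs), with a limma adjusted p of 0.424 and an exact two-sided sign-flip permutation p of 0.25, the smallest that 3 pairs allow. The SAT1 difference was 0.75 without the sh52 pair and 0.57 with the spike-in mean as a covariate. The same array had the highest mean of 8 spike-in controls, 9.83, where the other arrays lay between 8.88 and 9.26. Some of the genes below that were highest on this array are therefore also given without the sh52 pair. Among others highest on it, CCL20, F3, PTGES and MMP1 differed by 2.90, 3.46, 2.06 and 2.94. Without the sh52 pair those differences were 2.30, 3.07, 1.62 and 3.06.

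NF-kB and AP-1 are transcription factors that switch on cytokine, chemokine and prostaglandin genes, and glioblastoma cells are known to secrete IL6 and CXCL8. NRF2, the product of NFE2L2, is normally held for degradation by KEAP1; oxidants and electrophiles release it, and it then binds antioxidant response elements of genes for glutathione, thioredoxin, iron and NADPH metabolism. The arrays with replicate number 1 were high in the inflammatory genes and low in the antioxidant genes, compared with those of replicate number 2. RNA came from whole cultures, so fewer cells expressing a gene and less RNA per cell cannot be told apart.

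Limma, with the hairpin as a block, called 9 of 33764 transcripts at an adjusted p under 0.05, which is 0.0267% of those tested. All 9 rose, and 4 of them carry the symbol of 1 gene: CXCL8, PTGS2, IL6 and FGF7. At an unadjusted p under 0.05 the same fit counted 3495 transcripts, 1353 higher and 2142 lower. By size, 235 transcripts (0.696%) were at least 2-fold higher with every replicate 1 array above every replicate 2 array, and 141 (0.418%) were at least 2-fold lower with no overlap. The higher set held 124 genes and the lower set 41. At 3 or more log2 units there were 22 transcripts on the high side and 1 on the low side. The calls leaned on which pairs were present: without the sh52 pair limma called 18 transcripts, and without the shGFP pair or without the sh50 pair it called 0.

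CXCL8, the chemokine that draws neutrophils, gave 15.99, 15.60 and 15.72 on the replicate 1 arrays, against 9.96, 10.25 and 10.15 on the replicate 2 arrays. Its arrays were tightly grouped on each side, with a wide gap between the sides. CXCL8 rose by 5.65 ± 0.18 (SE; limma adjusted p = 0.00694), which is 50.2-fold on base 2. PTGS2, the inducible cyclooxygenase, gave 13.42, 14.43 and 15.47 on the replicate 1 arrays, against 7.35, 8.39 and 8.14 on the replicate 2 arrays, and rose by 6.48 ± 0.30, the largest difference of any gene (adjusted p = 0.0244 with limma). IL6, a cytokine that signals through gp130, gave 10.15, 10.10 and 11.57 on the replicate 1 arrays, against 5.75, 6.50 and 7.39 on the replicate 2 arrays, and rose by 4.06 ± 0.20 (adjusted p = 0.0244 with limma). FGF7, a fibroblast growth factor that acts on epithelial cells, gave 8.61, 9.07 and 9.48 on the replicate 1 arrays, against 4.45, 4.75 and 5.39 on the replicate 2 arrays, and rose by 4.19 ± 0.13 (adjusted p = 0.00694 with limma). For all 4 genes the lowest replicate 1 array stood well above the highest replicate 2 array, and the difference without the sh52 pair was 5.69 for CXCL8, 6.06 for PTGS2, 4.001 for IL6 and 4.25 for FGF7. Of the 5 called transcripts without a single gene symbol, TC04002067.hg.1 was the brightest. It gave 18.05, 17.60 and 18.13 on the replicate 1 arrays and 11.92, 12.05 and 11.80 on the replicate 2 arrays.

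The promoters of 4 of these inflammatory genes and of 2 antioxidant genes are shown because they carry the letters that NF-kB and NRF2 are known to bind. Each runs from 250 bases before to 50 bases after an annotated start, from RefSeq on GRCh38.p14, in the direction of the gene; capitals mark matches on either strand to GGNNNTTCC in the first 4 and to TGACNNNGC, which can overlap the AP-1 motif TGANTCA, in the last 2. They lie at chr4:73740319-73740618 (plus strand, CXCL8), chr7:22726950-22727249 (plus, IL6), chr4:74099146-74099445 (minus, CXCL2), chr2:227813592-227813891 (plus, CCL20), chr12:104215529-104215828 (plus, TXNRD1) and chr1:93909381-93909680 (minus, GCLM).
CXCL8: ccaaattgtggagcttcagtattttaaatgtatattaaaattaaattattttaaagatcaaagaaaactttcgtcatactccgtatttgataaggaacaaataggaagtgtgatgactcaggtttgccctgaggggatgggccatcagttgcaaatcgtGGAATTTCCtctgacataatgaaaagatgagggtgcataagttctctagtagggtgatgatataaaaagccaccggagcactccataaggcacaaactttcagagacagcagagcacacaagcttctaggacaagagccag
IL6: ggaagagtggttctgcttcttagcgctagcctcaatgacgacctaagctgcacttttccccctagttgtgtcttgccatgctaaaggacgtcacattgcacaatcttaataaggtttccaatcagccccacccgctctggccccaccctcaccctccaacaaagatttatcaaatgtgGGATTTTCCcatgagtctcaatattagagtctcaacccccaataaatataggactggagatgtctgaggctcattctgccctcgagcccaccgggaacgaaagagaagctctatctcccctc
CXCL2: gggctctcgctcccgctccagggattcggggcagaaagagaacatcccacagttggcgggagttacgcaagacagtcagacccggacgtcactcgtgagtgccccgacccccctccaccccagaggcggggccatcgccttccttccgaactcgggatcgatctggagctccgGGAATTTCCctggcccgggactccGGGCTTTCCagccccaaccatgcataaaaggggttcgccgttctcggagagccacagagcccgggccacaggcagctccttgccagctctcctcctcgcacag
CCL20: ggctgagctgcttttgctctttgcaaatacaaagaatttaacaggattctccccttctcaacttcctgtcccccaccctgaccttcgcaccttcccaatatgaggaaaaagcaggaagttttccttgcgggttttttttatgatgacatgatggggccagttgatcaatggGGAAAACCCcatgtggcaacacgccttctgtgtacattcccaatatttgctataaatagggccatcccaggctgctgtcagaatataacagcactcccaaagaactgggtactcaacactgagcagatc
TXNRD1: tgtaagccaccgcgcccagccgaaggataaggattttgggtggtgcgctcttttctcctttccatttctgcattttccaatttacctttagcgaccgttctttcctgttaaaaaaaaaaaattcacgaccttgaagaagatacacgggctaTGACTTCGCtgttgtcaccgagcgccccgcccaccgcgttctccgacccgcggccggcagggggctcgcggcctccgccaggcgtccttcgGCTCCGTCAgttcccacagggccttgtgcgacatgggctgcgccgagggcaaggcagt
GCLM: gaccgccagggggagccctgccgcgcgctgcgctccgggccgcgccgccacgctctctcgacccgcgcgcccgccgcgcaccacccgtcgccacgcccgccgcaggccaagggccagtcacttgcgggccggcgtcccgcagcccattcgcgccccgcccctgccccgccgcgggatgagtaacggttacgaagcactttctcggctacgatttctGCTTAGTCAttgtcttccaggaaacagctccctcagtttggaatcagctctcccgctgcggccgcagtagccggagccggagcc

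The motif GGNNNTTCC was found in at least 1 promoter of 8 of the 12 inflammatory genes with an entry in the promoter table (66.7%), of 37 of 98 protein-coding genes in the 2-fold higher set (37.8%), of 5 of 26 in the 2-fold lower set (19.2%), and of 28.5% of the 9842 measured protein-coding genes with an entry. Over all 27305 genes of the table it occurred in at least 1 promoter of 23.5%. Counted over all 35116 single promoters the share was 20.1%. TGACNNNGC was found in 10 of the 25 NRF2 antioxidant genes with an entry (40%) and in 6 of 18 p53 target genes (33.3%). It was found in 10 of 26 genes of the lower set (38.5%) and in 14 of 98 of the higher set (14.3%). The share was 19.6% of measured protein-coding genes, 16.1% of all genes of the table and 13.3% of single promoters. TGANTCA was found in 16 of 98 genes of the higher set (16.3%) and 3 of 26 of the lower set (11.5%). Its share was 7.4% of measured protein-coding genes, 9.37% of all genes of the table and 7.71% of single promoters. A match is a run of letters and not evidence of binding in these cells: GCLM holds 1 and TXNRD1 holds 2, while their arrays overlapped as given below. The promoters shown were picked for their matches. NQO1, FTL, CAT and ABCC2 had no TGACNNNGC in the promoters searched, and IL1B had neither GGNNNTTCC nor TGANTCA.

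**Figure D1:**
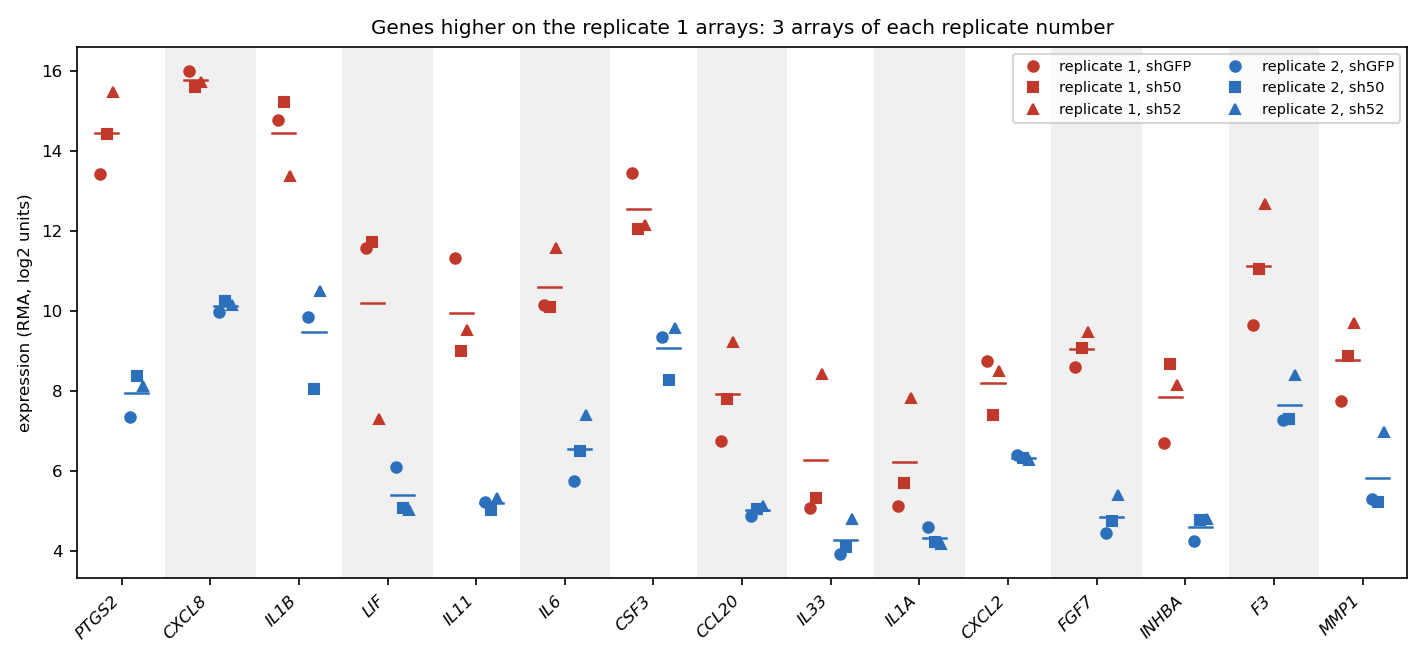
Expression (RMA, log2 units, vertical axis) of 15 genes of the inflammatory, prostaglandin, growth factor and protease lists on each array. Red symbols are the 3 replicate 1 arrays and blue symbols the 3 replicate 2 arrays, with circles for shGFP, squares for sh50, triangles for sh52 and short lines for means; for each of the 15 genes every red symbol lies above every blue one, with the widest gaps for PTGS2 and CXCL8.

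The list of inflammatory cytokines and chemokines had 23 genes, of which 16 were measured. The median difference of the 16 was 1.94, against -0.04 over all 14376 genes. Of the 16, 14 were higher in all 3 pairs, where 13.3% of all genes were, and 12 had no overlap between the replicate numbers, where 4.78% of all genes were higher without overlap. At an unadjusted limma p under 0.05, 14 were higher, where 5.11% of all genes were, and 2 (CXCL8 and IL6) passed the adjusted threshold. The median was 1.56 in the shGFP pair, 1.71 in the sh50 pair and 2.43 in the sh52 pair. The list's members were named with these data known, and a filter on the mean over arrays favours genes that are high on either side, so these counts describe and do not test the list. The other 7 included 6 dim genes, whose mean level was 2.97 to 3.67 and whose differences lay between -0.19 and 0.43.

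Among the interleukins, IL1B, the main secreted form of interleukin 1, gave 14.77, 15.21 and 13.37 on the replicate 1 arrays, against 9.85, 8.06 and 10.51 on the replicate 2 arrays. Its difference was 4.98 ± 0.79 with a limma adjusted p of 0.241, since the gap ran between 2.86 in the sh52 pair and 7.15 in the sh50 pair. IL1A, the form kept in the cell, gave 5.13, 5.71 and 7.82 on the replicate 1 arrays, against 4.60, 4.23 and 4.17 on the replicate 2 arrays. IL33, an alarmin of the same family, gave 5.07, 5.33 and 8.42 on the replicate 1 arrays, against 3.92, 4.09 and 4.81 on the replicate 2 arrays. For IL1A and IL33 the array labelled sh52 replicate 1 stood apart on the high side, and the mean difference was 1.00 and 1.19 without the sh52 pair, against 1.89 and 2.00 with it. IL1RN, the natural antagonist of the interleukin 1 receptor, stayed dim at 4.24, 4.27 and 4.75 on the replicate 1 arrays and 3.67, 3.73 and 3.93 on the replicate 2 arrays.

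LIF and IL11 also signal through gp130. LIF, leukaemia inhibitory factor, gave 11.56, 11.72 and 7.30 on the replicate 1 arrays, against 6.09, 5.08 and 5.03 on the replicate 2 arrays. IL11 gave 11.33, 9.01 and 9.52 on the replicate 1 arrays, against 5.23, 5.04 and 5.31 on the replicate 2 arrays. The 6 arrays did not overlap by replicate number for either gene, and the limma adjusted p was 0.265 for LIF and 0.102 for IL11. The shift in LIF was 2.27 in the sh52 pair and 5.47 and 6.64 in the other pairs, and with the sh52 pair left out its mean difference of 6.05 passed the threshold in the limma fit (adjusted p = 0.0113). Receptor genes had smaller differences. IL6ST, which encodes gp130, gave 13.92, 14.51 and 14.19 on the replicate 1 arrays, against 14.40, 14.71 and 14.40 on the replicate 2 arrays, a difference of -0.30. Over 11 measured receptors and signal transducers of the interleukin 1 and 6 families the median difference was 0.07, with 3 higher and 2 lower in all pairs, where 13.3% and 22.8% of all genes were; IL1RAP, the co-receptor for interleukin 1, differed by 0.67 and SOCS3, a feedback inhibitor of gp130 signalling, by 0.53.

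Among chemokines and colony stimulating factors, CCL20, which draws cells that carry CCR6, gave 6.76, 7.79 and 9.23 on the replicate 1 arrays, against 4.89, 5.06 and 5.13 on the replicate 2 arrays. CXCL2, a neutrophil chemokine, gave 8.75, 7.39 and 8.49 on the replicate 1 arrays, against 6.40, 6.32 and 6.28 on the replicate 2 arrays. CSF3, the granulocyte colony stimulating factor, gave 13.45, 12.04 and 12.14 on the replicate 1 arrays, against 9.34, 8.28 and 9.58 on the replicate 2 arrays. In each of these 3 genes the replicate 1 arrays all exceeded the replicate 2 arrays, by 2.90 ± 0.43, 1.88 ± 0.28 and 3.47 ± 0.32 on average, with limma adjusted p of 0.233, 0.240 and 0.102. CCL2, the monocyte chemokine, behaved differently, with 11.83, 14.28 and 14.05 on the replicate 1 arrays and 11.16, 12.32 and 12.52 on the replicate 2 arrays. CCL2 was higher in every pair, by 0.67 to 1.96, yet the shGFP replicate 1 array lay below 2 of the replicate 2 arrays.

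In the prostaglandin list, PTGS2 stood beside PTGES, the inducible synthase that makes prostaglandin E2 from its product. PTGES gave 9.92, 10.26 and 11.03 on the replicate 1 arrays, against 7.97, 8.98 and 8.09 on the replicate 2 arrays, without overlap and with a limma adjusted p of 0.243 for the difference of 2.06 ± 0.33. PLA2G4A, the phospholipase that frees arachidonic acid, differed by 0.66 with an adjusted p of 0.456. The median of the 9 measured genes of this list was 0.13, so the shift lay in these few members.

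Subunits and feedback inhibitors of NF-kB had smaller differences. Over 17 measured genes the median difference was 0.22, with 6 higher in all pairs (13.3% of all genes), 1 lower in all pairs (22.8%) and 3 higher without overlap (4.78%). NFKB2, a precursor subunit, gave 7.53, 7.57 and 7.77 on the replicate 1 arrays, against 6.83, 6.96 and 6.72 on the replicate 2 arrays, and NFKBIZ, a nuclear co-activator for IL6, differed by 0.94 without overlap. Among the inhibitors, NFKBIA and TNFAIP3 depended on the array labelled sh52 replicate 1. NFKBIA, which encodes the main inhibitor, gave 11.94, 11.35 and 12.70 on the replicate 1 arrays, against 11.37, 11.48 and 11.32 on the replicate 2 arrays, so the arrays overlapped and the mean of 0.61 was 0.22 without the sh52 pair. TNFAIP3, a deubiquitinase that ends the signal, gave 8.28, 8.004 and 10.04 on the replicate 1 arrays, against 7.96, 7.88 and 8.23 on the replicate 2 arrays, and its mean of 0.75 was 0.22 without that pair. With the spike-in mean as a covariate the fitted differences of NFKBIA and TNFAIP3 turned to -0.19 and -0.09.

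Immediate early genes had a small median of 0.23 over 16 measured members, of which 7 were higher in all pairs (13.3% of all genes) and none lower. EGR1, a growth factor induced transcription factor, gave 9.68, 9.38 and 8.45 on the replicate 1 arrays, against 7.49, 7.88 and 6.37 on the replicate 2 arrays, a difference of 1.92 ± 0.19 without overlap (limma adjusted p = 0.113). The phosphatase genes DUSP1 and DUSP6, which shut off MAP kinases, differed by 1.36 and 1.19 without overlap. NR4A2, which is not in the list, is an orphan nuclear receptor induced early by cyclic AMP and growth factors, and it gave 12.09, 11.02 and 8.60 on the replicate 1 arrays, against 5.06, 6.23 and 5.23 on the replicate 2 arrays. The NR4A2 difference of 5.06 was carried by all 3 pairs, at 7.02, 4.79 and 3.37, and its limma adjusted p was 0.195.

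Secreted growth factors had a median of 0.70 over 12 measured genes, with 8 higher and 1 lower in all pairs, where 13.3% and 22.8% of all genes were. EREG, a ligand of the EGF receptor, gave 15.03, 15.35 and 13.57 on the replicate 1 arrays, against 13.59, 12.76 and 11.83 on the replicate 2 arrays. HBEGF, another ligand of that receptor, gave 12.05, 10.87 and 8.77 on the replicate 1 arrays, against 7.87, 7.94 and 8.43 on the replicate 2 arrays. EREG was higher in every pair with a slight overlap between hairpins, and HBEGF differed without overlap by 4.18 in the shGFP pair, by 2.93 in the sh50 pair and by 0.34 in the sh52 pair. INHBA, a subunit of activin, gave 6.70, 8.67 and 8.14 on the replicate 1 arrays, against 4.26, 4.79 and 4.80 on the replicate 2 arrays, a difference of 3.22 ± 0.29 (limma adjusted p = 0.102). Outside the list, FST, which encodes follistatin, the secreted inhibitor of activin, differed by 3.44. IGFBP1, a binding protein for insulin-like growth factors, differed by 3.36, and RGS2, which dampens G protein signalling, by 3.27. None of these 3 genes overlapped between the replicate numbers.

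Proteases of the matrix and the plasminogen system had a median of 0.87 over 16 measured genes, and 6 of them were higher without overlap (4.78% of all genes). The pair medians were 0.36, 1.53 and 0.49, and the median was 0.42 without the sh50 pair. MMP1, interstitial collagenase, gave 7.76, 8.88 and 9.70 on the replicate 1 arrays, against 5.30, 5.22 and 6.98 on the replicate 2 arrays. F3, tissue factor, which starts clotting, gave 9.66, 11.05 and 12.66 on the replicate 1 arrays, against 7.27, 7.30 and 8.41 on the replicate 2 arrays. The limma adjusted p was 0.102 for the MMP1 difference of 2.94 ± 0.26 and 0.142 for the F3 difference of 3.46 ± 0.37. PLAUR, the urokinase receptor, and TFPI2, a secreted protease inhibitor, differed by 1.41 and 1.85. MMP10 reached 6.59 on the array labelled sh52 replicate 1 and 3.94 and 4.24 on the other replicate 1 arrays, against 3.56, 3.18 and 3.78 on the replicate 2 arrays, and its difference of 1.41 was 0.72 without the sh52 pair. Matrix genes had a median of 0.57 over 18, with 11 higher in all pairs (13.3% of all genes) and none lower, and that median was 0.38 without the sh52 pair. COL6A3, a chain of collagen VI, gave 15.33, 14.96 and 16.00 on the replicate 1 arrays, against 14.23, 13.91 and 14.65 on the replicate 2 arrays. The genes of the other collagen VI chains, COL6A1 and COL6A2, differed by 1.10 and 1.00, and TNC, tenascin C, by 1.13.

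**Figure D2:**
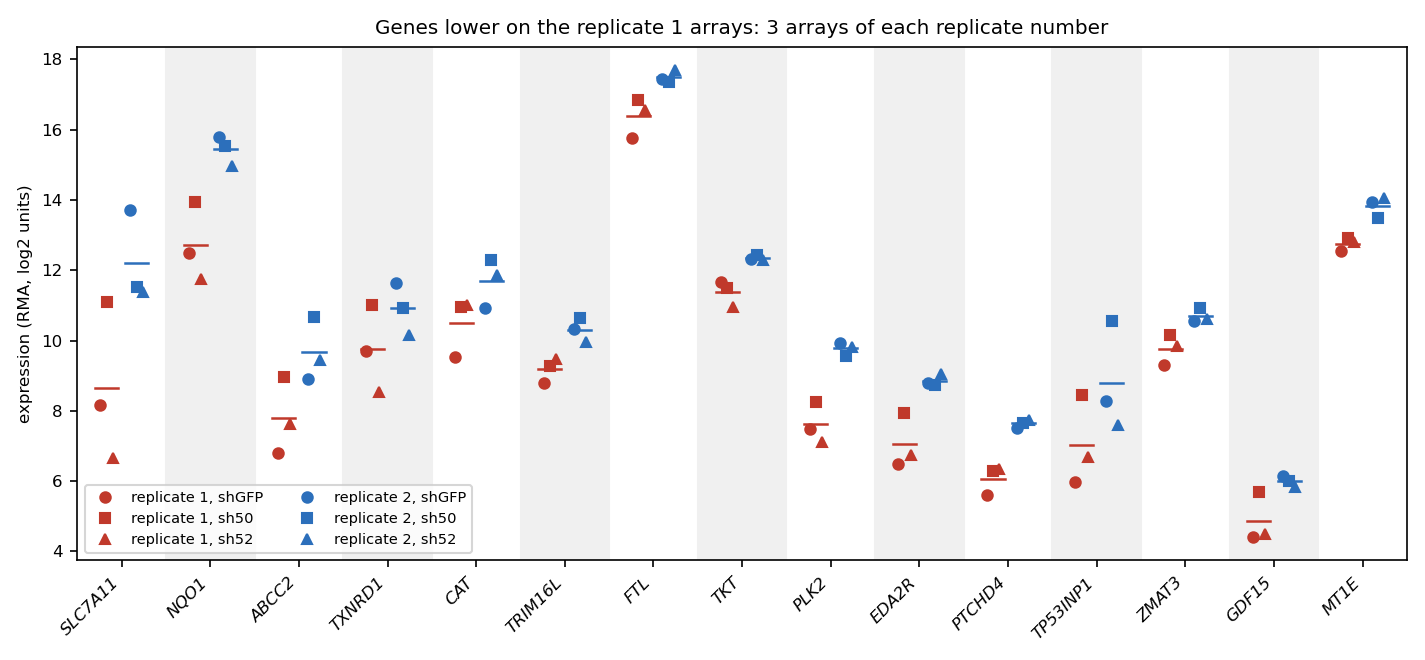
Expression (RMA, log2 units, vertical axis) of 13 genes of the antioxidant, pentose phosphate, p53 and metallothionein lists and of EDA2R and PTCHD4 on each array, drawn as in the plot of the higher genes: red for replicate 1, blue for replicate 2, shapes for hairpins and short lines for means. The mean of the replicate 1 arrays is below that of the replicate 2 arrays for all 15 genes, but red and blue symbols overlap for ABCC2, TXNRD1, CAT and TP53INP1.

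In the opposite direction, the list of NRF2 antioxidant genes had 37 members, of which 34 were measured, with a median difference of -0.44, against -0.04 over all genes. Of the 34, 19 were lower in all 3 pairs, where 22.8% of all genes were, and none was higher in all 3. There was no overlap for 10 of the 34, where 9.28% of all genes were lower without overlap, and 12 had an unadjusted limma p under 0.05, where 6.48% of all genes did. None passed the adjusted threshold. The list median was -0.62 in the shGFP pair, -0.35 in the sh50 pair and -0.34 in the sh52 pair.

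SLC7A11, the cystine importer that feeds glutathione synthesis, had the largest negative difference of any gene with separate arrays. SLC7A11 gave 8.15, 11.11 and 6.67 on the replicate 1 arrays, against 13.71, 11.53 and 11.38 on the replicate 2 arrays. The replicate 1 arrays were all below the replicate 2 arrays, but by 5.56 in the shGFP pair, 4.70 in the sh52 pair and only 0.42 in the sh50 pair, and the mean of -3.56 ± 1.01 had a limma adjusted p of 0.381. NQO1, the quinone reductase that is a standard readout of NRF2, gave 12.48, 13.93 and 11.75 on the replicate 1 arrays, against 15.79, 15.54 and 14.98 on the replicate 2 arrays. The NQO1 arrays did not overlap, and the difference was -2.71 ± 0.37 (limma adjusted p = 0.201). NFE2L2 itself differed little, with 10.31, 10.73 and 10.04 on the replicate 1 arrays and 10.85, 10.94 and 10.29 on the replicate 2 arrays, a difference of -0.33.

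Other genes of the list differed by pair. TXNRD1, thioredoxin reductase, gave 9.69, 11.01 and 8.55 on the replicate 1 arrays, against 11.65, 10.93 and 10.17 on the replicate 2 arrays. HMOX1, haem oxygenase, gave 6.15, 7.18 and 7.40 on the replicate 1 arrays, against 8.82, 6.96 and 8.85 on the replicate 2 arrays. GCLM, the modifier subunit of the enzyme that starts glutathione synthesis, gave 9.54, 9.75 and 8.56 on the replicate 1 arrays, against 10.12, 9.53 and 8.89 on the replicate 2 arrays. All 3 genes were lower in the shGFP and sh52 pairs and slightly higher in the sh50 pair, so their arrays overlapped, and the GCLM difference of -0.23 turned to 0.11 with the spike-in mean as a covariate.

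Antioxidant genes that were lower in every pair included enzymes against peroxide and the iron store. CAT, catalase, gave 9.52, 10.96 and 11.01 on the replicate 1 arrays, against 10.94, 12.29 and 11.86 on the replicate 2 arrays, a difference of -1.20 ± 0.17 with overlap between hairpins (limma adjusted p = 0.214). FTL, the ferritin light chain, gave 15.77, 16.85 and 16.55 on the replicate 1 arrays, against 17.43, 17.35 and 17.69 on the replicate 2 arrays. PRDX1, a peroxiredoxin, gave 15.73, 15.85 and 15.66 on the replicate 1 arrays, against 16.38, 16.18 and 16.38 on the replicate 2 arrays. Neither FTL nor PRDX1 overlapped, at differences of -1.10 and -0.57. ABCC2, an exporter of glutathione conjugates, differed by -1.88 ± 0.15 with -2.11, -1.71 and -1.84 in the 3 pairs, the most even of these genes, and had a limma adjusted p of 0.102. TRIM16L differed by -1.13 and EPHX1, microsomal epoxide hydrolase, by -0.78.

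Enzymes of the pentose phosphate pathway, which makes NADPH, had a median of -0.31 over 8 measured genes, with 4 lower in all pairs (22.8% of all genes) and none higher in all pairs. TKT, transketolase, gave 11.67, 11.50 and 10.96 on the replicate 1 arrays, against 12.31, 12.43 and 12.28 on the replicate 2 arrays, without overlap. PGD, 6-phosphogluconate dehydrogenase, differed by -0.61, also without overlap.

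Target genes of p53, which carry out cell cycle arrest, DNA repair and cell death programmes, had a median of -0.56 over 22 measured genes, with 13 lower in all 3 pairs (22.8% of all genes), none higher in all 3 and 9 lower without overlap (9.28% of all genes). The p53 pair medians were -0.67 for shGFP, -0.20 for sh50 and -0.51 for sh52. In the sh50 pair 8 of the 22 genes were higher, against 2 in each other pair. The p53 list median was -0.40 without the sh52 pair and -0.32 with the spike-in mean as a covariate. PLK2, a polo-like kinase, gave 7.48, 8.26 and 7.12 on the replicate 1 arrays, against 9.94, 9.56 and 9.83 on the replicate 2 arrays. Outside the list, EDA2R, a receptor of the TNF receptor family, gave 6.48, 7.94 and 6.75 on the replicate 1 arrays, against 8.79, 8.75 and 9.05 on the replicate 2 arrays. Neither gene overlapped, and the differences were -2.16 ± 0.30 and -1.80 ± 0.34 (limma adjusted p of 0.208 and 0.294). TP53INP1, a stress-induced partner of p53, differed by -1.77 with overlap, ZMAT3, an RNA-binding protein, by -0.92 without, and RRM2B, the p53-induced subunit of ribonucleotide reductase, by -0.89 without. GDF15, a stress cytokine that also stands in the growth factor list, gave 4.41, 5.69 and 4.50 on the replicate 1 arrays, against 6.15, 6.003 and 5.82 on the replicate 2 arrays. FBXO32, a ubiquitin ligase known from muscle wasting, TLR3, the receptor for double-stranded RNA, and PTCHD4 belonged to none of the lists and differed by -1.87, -1.31 and -1.57 without overlap.

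Metallothionein and zinc genes had a median of -0.21 over 12, with 3 higher and 3 lower in all pairs, where 13.3% and 22.8% of all genes were. The pair medians were -0.47 for shGFP, 0.11 for sh50 and -0.30 for sh52. With the spike-in mean as a covariate the list median was 0.01. MT1E, a metallothionein, gave 12.55, 12.93 and 12.81 on the replicate 1 arrays, against 13.94, 13.50 and 14.05 on the replicate 2 arrays, and the zinc exporter SLC30A1 differed by -1.12, both without overlap. SLC39A10, a zinc importer, went the other way, with 11.24, 10.71 and 11.69 on the replicate 1 arrays and 9.02, 9.67 and 9.80 on the replicate 2 arrays. Heat shock chaperones had a median of -0.42 over 11 genes with 5 lower in all pairs (22.8% of all genes) and none higher, and BAG3, a co-chaperone, differed by -0.87. That median was -0.12 without the sh52 pair and 0.12 with the spike-in mean as a covariate. The pair medians of the list were -0.43 for shGFP, 0.01 for sh50 and -0.62 for sh52. SQSTM1, the autophagy receptor that is also an NRF2 target, gave 8.19, 8.73 and 8.16 on the replicate 1 arrays, against 9.91, 8.79 and 9.60 on the replicate 2 arrays, with the sh50 arrays almost level. Ribosomal protein genes had a median of -0.16, with 0 of 19 higher by the mean of the pairs and 9 lower in all pairs (22.8% of all genes). Their pair medians were -0.21 for shGFP, -0.02 for sh50 and -0.33 for sh52, and 9 of the 19 were higher in the sh50 pair. With the spike-in mean as a covariate the list median was 0.02. Interferon response genes had a median of -0.20 over 19, with 7 lower in all pairs (22.8% of all genes). All 19 overlapped between the replicate numbers, where 4.78% of all genes were higher and 9.28% lower without overlap. None had an unadjusted limma p under 0.05, where 5.11% of all genes were higher and 6.48% lower at that limit.

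**Figure D3:**
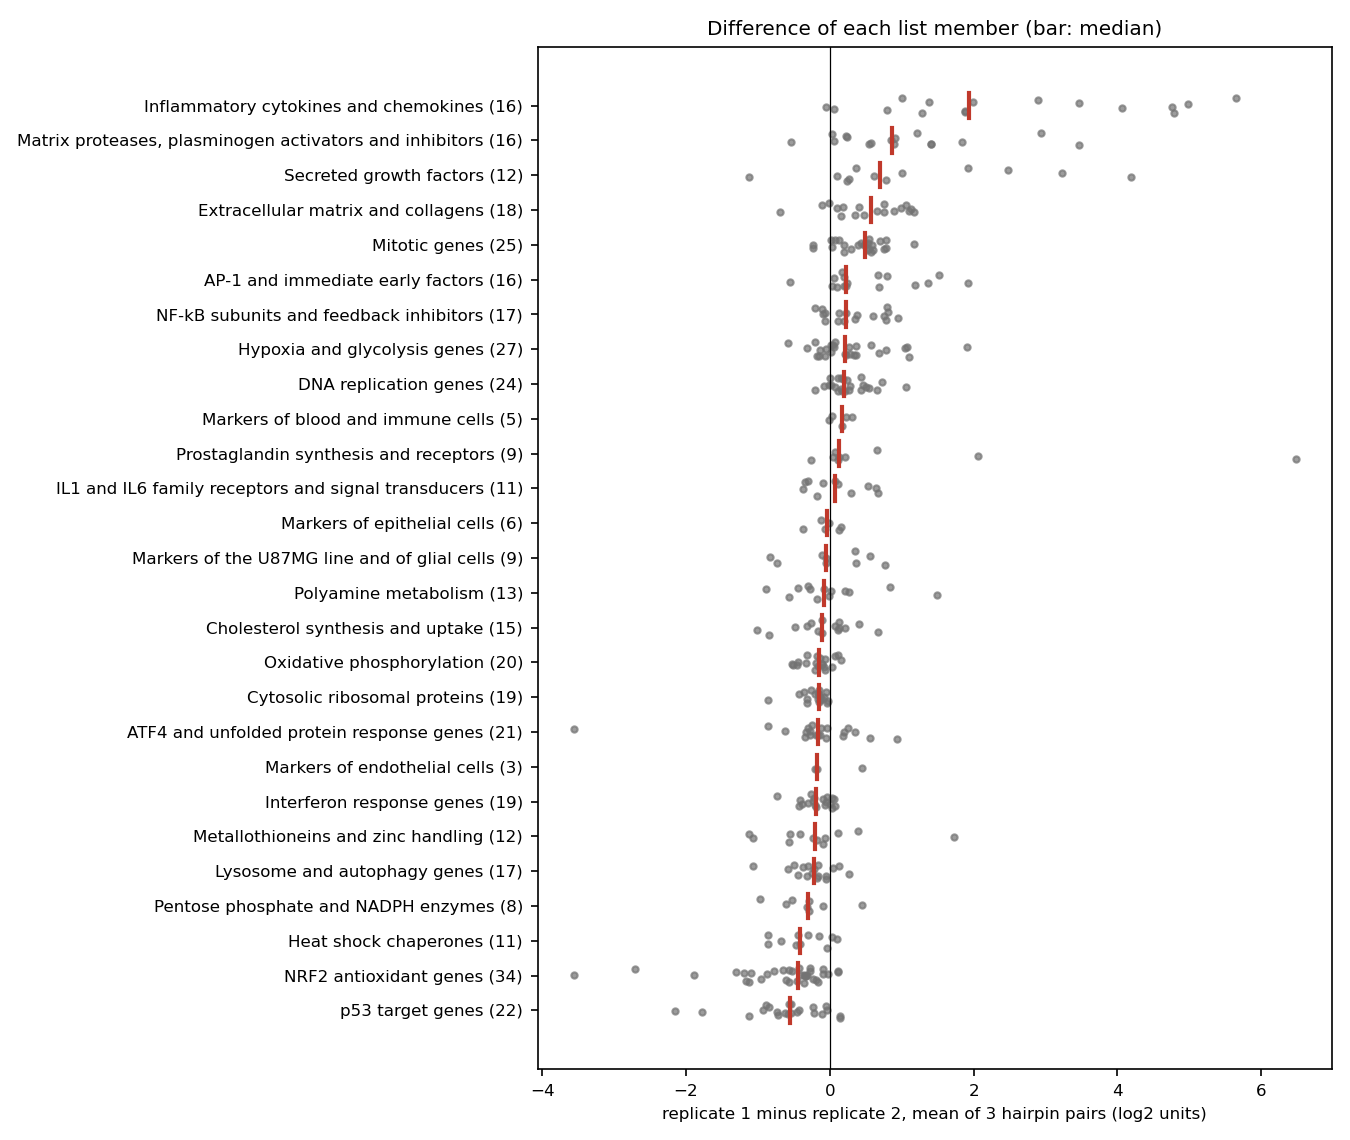
Difference between the replicate numbers (replicate 1 minus replicate 2, mean of the 3 hairpin pairs, log2 units, horizontal axis) for each measured member of 27 gene lists, with a red bar for the list median and the number of genes in brackets. The inflammatory list has the highest median, 1.94, and the p53 and NRF2 lists the lowest, -0.56 and -0.44.

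The shared part of the difference was uneven over the hairpins. Across 33764 transcripts, the difference of the shGFP pair correlated with that of the sh50 pair at Pearson r = 0.39 and with that of the sh52 pair at 0.35, while the sh50 and sh52 pairs correlated at 0.05 (Spearman 0.24, 0.25 and -0.07). These coefficients are across transcripts that were normalised together, not across independent samples, and are given as a description. Of the total sum of squares over all transcripts, the replicate number accounted for 26.6% with 1 degree of freedom, the hairpin for 46.6% with 2 and the rest for 26.8% with 2. In 2268 of 14376 genes (15.8%) all 3 pairs differed in the same direction and the mean difference was larger than the span of the hairpin means. How large this share would be with no replicate difference was not tested, so the count is a description only.

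Cell cycle genes showed the unevenness most plainly. The median difference over 25 mitotic genes was 0.48 in the shGFP pair, 1.13 in the sh50 pair and -0.31 in the sh52 pair, and 21, 25 and 4 of the 25 genes were higher with replicate number 1 in those pairs. Over 24 replication genes the pair medians were -0.18, 1.26 and -0.37, with 8, 24 and 2 genes higher. Over all genes the pair medians were -0.05, -0.03 and -0.05. TOP2A, the topoisomerase of dividing cells, gave 14.98, 13.71 and 13.60 on the replicate 1 arrays, against 14.29, 12.31 and 13.33 on the replicate 2 arrays. RRM2, the S-phase subunit of ribonucleotide reductase, gave 11.61, 11.11 and 10.96 on the replicate 1 arrays, against 11.15, 8.87 and 10.48 on the replicate 2 arrays. The sh50 replicate 2 array was the lowest of all 6 for both genes. No mitotic or replication gene separated the replicate numbers without overlap, where 4.78% of all genes were higher and 9.28% lower without overlap.

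Hypoxia and glycolysis genes differed mainly in the sh52 pair, where 25 of 27 were higher and the median was 0.76, against -0.05 over all genes. Their medians were -0.15 and -0.17 in the shGFP and sh50 pairs. The median over all pairs was 0.21, and it was -0.15 without the sh52 pair and -0.34 with the spike-in mean as a covariate. HILPDA, a lipid droplet protein induced by low oxygen, gave 7.16, 7.12 and 12.98 on the replicate 1 arrays, against 7.04, 7.07 and 7.42 on the replicate 2 arrays. Only the array labelled sh52 replicate 1 was high, and the HILPDA difference of 1.91 was 0.08 without the sh52 pair and -0.80 with the spike-in mean as a covariate. P4HA1, a collagen prolyl hydroxylase, gave 13.10, 13.94 and 16.09 on the replicate 1 arrays, against 12.83, 13.35 and 13.72 on the replicate 2 arrays. VEGFA, the angiogenic factor, gave 10.87, 10.73 and 12.26 on the replicate 1 arrays, against 10.69, 10.20 and 10.63 on the replicate 2 arrays. Without the sh52 pair the P4HA1 difference of 1.07 was 0.43 and the VEGFA difference of 0.78 was 0.36. The array labelled sh52 replicate 1 is the one whose SAT1 level and spike-in mean were also the highest; their part in the hypoxia genes was not tested. Cholesterol genes differed mainly in the sh50 pair, with a median of -0.49 and 1 of 15 genes higher. Their medians were 0.14 and 0.20 in the shGFP and sh52 pairs, with 9 of 15 genes higher in each. DHCR7, the last enzyme of the pathway, was instead lower in all 3 pairs without overlap. It gave 9.40, 9.24 and 10.07 on the replicate 1 arrays, against 10.21, 10.83 and 10.73 on the replicate 2 arrays.

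**Figure D4:**
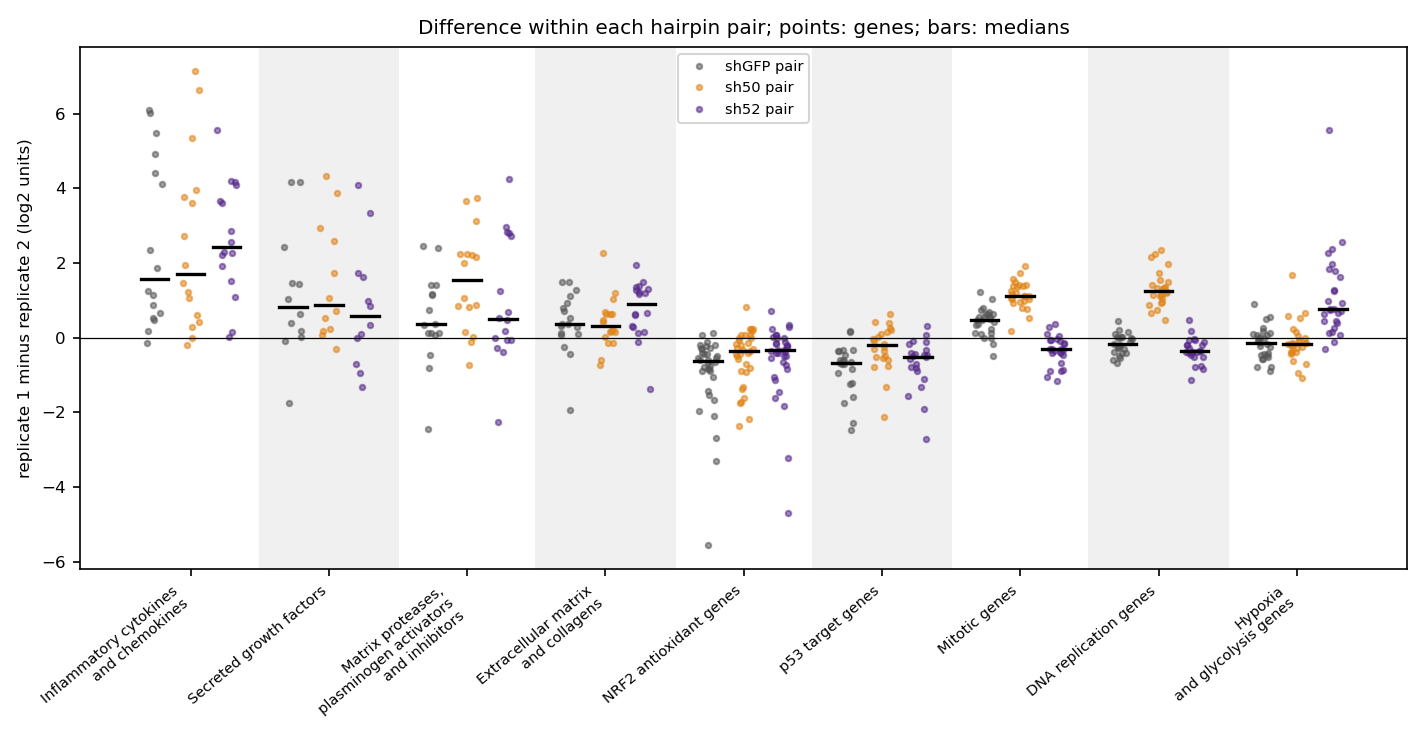
Difference within each hairpin pair (replicate 1 minus replicate 2, log2 units, vertical axis) for the measured genes of 9 lists, with grey points for the shGFP pair, orange for sh50, purple for sh52 and black bars for medians. The 3 inflammatory medians are all positive (1.56, 1.71 and 2.43) and the 3 NRF2 medians all negative, while the mitosis median is positive in the shGFP and sh50 pairs, the replication median in the sh50 pair and the hypoxia median in the sh52 pair.

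Read against shGFP with the same replicate number, the hairpin difference had opposite signs under the 2 replicate numbers for some named genes and the same sign for others. SLC7A11 on the sh50 arrays differed from shGFP by 2.95 with replicate number 1 and by -2.18 with number 2. IL1B on the sh50 arrays differed by 0.44 and -1.78, and on the sh52 arrays by -1.40 and 0.67, with replicate numbers 1 and 2. NR4A2 on the sh52 arrays differed by -3.49 and 0.17. LIF on the sh52 arrays differed by -4.26 and -1.06, with the same sign under both numbers. CCL2 differed from shGFP by 2.44 and 1.16 on the sh50 arrays and by 2.21 and 1.36 on the sh52 arrays, and CAT by 1.44 and 1.34 and by 1.49 and 0.91. The median of the mitotic genes differed from shGFP by -1.23 and -1.99 for sh50 and by -1.995 and -1.28 for sh52, with replicate numbers 1 and 2. CXCL8 was nearly level, within 0.39 either way of shGFP for both hairpins and both numbers. For the mean of sh50 and sh52 against shGFP, limma counted 3801 transcripts at an unadjusted p under 0.05 with the replicate number as a block and 3102 without it, and 0 in either fit at an adjusted p under 0.05. The median residual standard deviation was 0.191 with the block and 0.221 without. Of the polyamine genes, 13 were measured with a median of -0.08; OAZ2, an antizyme that lowers ornithine decarboxylase, differed by -0.57 and SAT2, the relative of SAT1, by -0.44.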

How the data were processed

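Gene expression was measured in 6 samples of U87MG cells on Affymetrix human transcriptome arrays. The authors deposited log2 expression, which Expression Console produced by RMA over core exons, per the labels. The submitters' processing notes also list Transcriptome Analysis Console. For versions, background settings, genome build and probe annotation, nothing is stated (not given in the sources used here). The deposited log2 values ran between 1.38 and 19.9, which does not settle the base of the logarithm or any further scaling; base 2 was taken.

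The table held 70523 features. Of these, 67528 were transcript clusters, and those whose 6-array mean reached the median entered; the other 2995 features were left out except for 8 spike-in controls. The platform annotation gave 1 gene symbol to 23781 clusters, several to 1543 and none to 42204. A RefSeq gene table (GRCh38.p14) updated the symbols: 21497 matched on the gene identifier, 1974 on the symbol, 306 on a synonym, and 4 stayed as listed. A gene was its brightest cluster with that symbol alone.

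The comparison was fitted with limma 3.58.1 in R 4.3.3 on hairpin plus replicate number, which leaves 2 residual degrees of freedom (3.05 prior degrees of freedom), two-sided, with Benjamini-Hochberg adjustment over all clusters kept. Every adjusted p is from this fit; calls are at an adjusted p under 0.05. No set test was run: lists are described by counts and medians. Gene lists came with 27 names; members and lists were chosen with earlier results of these data known. Named genes were taken by a rule: SAT1 and 12 textbook genes, the 20 largest differences each way with separate arrays, the 5 smallest p in either direction, and the 5 list members (10 for the inflammatory and NRF2 lists) with the largest differences of shared sign; the text gives part of them. The fit was tested on simulated data. Motifs were searched on both strands in Python 3.11.15.

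The replicate numbers come from the sample titles, and the check of pairing across hairpins is the correlation of the pair differences given with the results; 2 of 3 correlations were over 0.1, so the numbers are not treated as a proven shared batch. Alternatives were no filter, a filter at the 75th percentile, clusters with 1 symbol, the mean of all clusters of a gene, trend and robust moderation, no moderation, no hairpin term, the spike-in mean as a covariate, another quantile normalization, centring, a 1.5-fold limit and each array left out, which removes its pair from the contrast.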

Additional observations from a re-analysis of the deposited data

Results flagged for a closer look

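The mean of the 8 spike-in controls was 9.83 on the array labelled sh52 replicate 1, above the 5 other arrays, which lay between 8.88 and 9.26. Spike-in controls enter the results only as a covariate in an alternative fit, and their part in the differences of that array was not tested beyond that fit.

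The median difference of the mitotic genes was 1.13 in the sh50 pair and -0.31 in the sh52 pair, 1.44 apart. The same medians for replication genes were 1.26 and -0.37, 1.63 apart. In both lists the pairs moved in opposite directions; each pair is 1 array against 1 array, so the difference between the pairs was not tested.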

How the results depend on the processing

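The 9 transcripts called became 4 among clusters with 1 symbol and 4 with no hairpin term, 0 without moderation and 0 with the spike-in mean as a covariate; leaving out 1 array gave 0 to 18. At an unadjusted p under 0.05 the 3495 transcripts became 2169 with the filter at the 75th percentile and 1936 with 1 symbol, with 1542 to 4181 over the arrays left out. The 235 transcripts at least 2-fold higher without overlap became 130 with 1 symbol and 515 at 1.5-fold, and 339 to 371 with an array left out. The 141 lower ones became 41, 657 and 215 to 416. The inflammatory median of 1.94 was 1.33 without a filter, 4.06 with the filter at the 75th percentile, 1.46 with the spike-in covariate and 1.51 to 2.49 with an array left out. The NRF2 median stayed negative under all alternatives run, between -0.53 and -0.38. Some members moved more than the median with the spike-in covariate. SLC7A11 moved from -3.56 to -1.04, NQO1 from -2.71 to -1.78, TXNRD1 from -1.17 to -0.17 and HMOX1 from -1.30 to -0.24. NFE2L2 moved little, from -0.33 to -0.28. With the replicate number as a block the count for both hairpins against shGFP was 3801, against 3102 without. With the spike-in covariate NFKBIA turned to -0.19, TNFAIP3 to -0.087, GCLM to 0.11 and HILPDA to -0.80. The medians of the immediate early, NF-kB and pentose phosphate lists were 0.71, 0.08 and -0.12 with that covariate. The mitotic and replication medians, 0.49 and 0.20 over all pairs, were 1.22 and 1.17 with it. Of 512 alternative values of the 81 genes given, 508 kept their direction. Much of this count was fixed in advance. Most genes were named because their pair differences share a sign, so leaving out a pair could not reverse them. Changes of filter, moderation or hairpin term leave the fitted difference as it was. IL6, PTGS2, CXCL8 and FGF7 kept their direction in each. IL6 and PTGS2 lost the call with no hairpin term, and all 4 lost it without moderation, with the spike-in covariate, and without the shGFP or the sh50 pair.

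The causes of these shifts were not tested. The spike-in covariate takes 1 of 2 residual degrees of freedom, and leaving out a pair leaves 1. Few arrays and 2 residual degrees of freedom limit every call, and dim transcripts near the filter carry little signal over background. The replicate number cannot be told apart from whatever else differed between the arrays that share it.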
